A study of Mus musculus with 16 samples.

Results

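Long noncoding RNAs (lncRNAs) with a solid level in E11.5 mouse embryos are described here across genotype and body region. They are the 109 rows of type lncRNA that were chosen by their measured level, a mean of at least 5 FPKM over all 16 libraries. FPKM counts sequenced fragments, divided by the length of the gene and by the depth of the library. The levels are therefore given as a description. The table held 56748 rows, of which 11288 were lncRNAs and 8339 of these were above 0. The level alone chose 123 lncRNAs. From these, 9 on the sex chromosomes, 3 transcripts of imprinted loci named in the rule and 2 near Ednrb were left out. A limit of 4 FPKM would have kept 141 lncRNAs and a limit of 6 FPKM 86. Just inside the limit lay Gm28192, Gm47814 and D930007P13Rik, with means of 5.10, 5.05 and 5.02 FPKM. Just outside lay Gm15545, Gm11508 and Gm29093, the first of them a shade under 5.00 FPKM and the others at 4.95 and 4.93 FPKM. All 109 passed the filter for testing, which their own rule made likely, since it chose on the same level.

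The embryos were homozygous mutants of the endothelin receptor B gene (Ednrb-/-) or wild type (WT). From each genotype the caudal region and the trunk region were taken, with 4 libraries for each of Ednrb-/- caudal, WT caudal, Ednrb-/- trunk and WT trunk. The labels call the libraries of a group biological replicates and say nothing of litters or of how many embryos went into each, so the p-values measure the spread between these libraries. How the Ednrb allele was made, and the strain background, were not used here.

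A lncRNA is transcribed and usually spliced like a messenger RNA but has no long reading frame. Some act as RNA, some act on a neighbouring gene through being transcribed, and some serve mainly as hosts. In host genes the introns or exons are cut to release a microRNA or a small nucleolar RNA (snoRNA). MicroRNAs pair through their seed with messenger RNAs and lower their output, while snoRNAs guide the modification of ribosomal RNA.

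Of the 109, 14 held annotated snoRNAs and 11 held annotated microRNAs within their span and on their strand. The 11 microRNA hosts held 20 microRNA genes, of which 17 matched RefSeq by symbol, with 27 mature sequences. The sequences below are those through which the host results can be read, with the seed (bases 2 to 8 from the 5′ end) in capitals, from RefSeq on GRCm38.p6.
mmu-miR-9-5p: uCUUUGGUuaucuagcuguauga
mmu-miR-9-3p: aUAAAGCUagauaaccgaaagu
mmu-miR-100-5p: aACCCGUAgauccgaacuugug
mmu-miR-125b-5p: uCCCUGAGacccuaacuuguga
mmu-miR-17-5p: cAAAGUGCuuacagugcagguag
mmu-miR-20a-5p: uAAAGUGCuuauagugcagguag
mmu-miR-18a-5p: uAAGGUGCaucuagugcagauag
mmu-miR-19a-3p: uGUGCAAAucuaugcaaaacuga
mmu-miR-19b-3p: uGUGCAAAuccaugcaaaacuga
mmu-miR-92a-3p: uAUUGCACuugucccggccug
mmu-miR-199a-5p: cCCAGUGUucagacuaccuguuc
mmu-miR-214-3p: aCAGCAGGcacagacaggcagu
mmu-miR-219a-5p: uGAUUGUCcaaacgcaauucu
mmu-miR-196a-5p: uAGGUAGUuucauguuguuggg

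Gm3764, C130071C03Rik and Mir9-3hg hold Mir9-1, Mir9-2 and Mir9-3, 3 separate genes that give the same mature miR-9, and Gm3764 also spans Mir3093. Within the Mir17hg cluster, miR-17-5p and miR-20a-5p share a seed, and miR-19a-3p and miR-19b-3p share another. Mir100hg holds Mirlet7a-2, Mir100 and Mir125b-1, and the short lncRNA Gm28119, inside it on the same strand, also spans Mir125b-1. Dnm3os holds Mir199a-2 and Mir214, Gm53 holds Mir196a-1, and ENSMUSG00000120522 holds Mir219a-2. Mir124a-1hg holds Mir124a-1 and Mir3078, and Mir124-2hg holds Mir124a-2. Mature microRNAs were not measured: every value below is of the long host transcript.

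Reads in the listed genes ranged from 34883821 to 43444905 per library, and the 109 lncRNAs took 0.470% to 0.618% of them. Ednrb averaged 2.34 ± 0.847 FPKM in Ednrb-/- caudal and 30.6 ± 3.17 FPKM in WT caudal libraries, and 3.98 ± 0.596 FPKM in Ednrb-/- trunk libraries and 38.7 ± 2.79 FPKM in WT trunk libraries (SD, n = 4 each). The summed FPKM of 12 posterior Hox genes, which mark the tail end of the body, was 10.9 to 26.0 in trunk against 253 to 283 in caudal libraries of Ednrb-/- embryos. In WT embryos it was 13.8 to 52.2 in trunk against 285 to 330 in caudal libraries. Xist and the Y-linked Ddx3y were both at 5 FPKM or more in 3 libraries, Ednrb-/- caudal 3, Ednrb-/- trunk 3 and WT caudal 2, and the counts of hosts below are also given without them. In 4 libraries Xist was at 135 to 156 FPKM and Ddx3y under 1 FPKM, and the groups differed in their number: 0 of the Ednrb-/- caudal, 1 of the WT caudal, 1 of the Ednrb-/- trunk and 2 of the WT trunk libraries. With a term for Ddx3y at or above 5 FPKM in the fit, 12 snoRNA hosts were called higher in the caudal region and 3 in the trunk: AI506816 was called in neither (0.21 in the caudal region, adjusted p = 0.0587; 0.22 in the trunk, adjusted p = 0.0704). In whole tissue, fewer cells of a type and less RNA per cell cannot be told apart. The sources used here do not give the strand setting of the counting, and so reads of a lncRNA and of a gene that overlaps it could not be assigned with certainty.

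In the caudal region 28 of the 109 lncRNAs rose and 26 fell in Ednrb-/- against WT embryos, at an adjusted p under 0.05 in limma fitted on 17205 genes. The share called was 41.6% over all genes tested, and 52.6% over the 7811 protein-coding genes with a mean of at least 5 FPKM, and it was 49.5% of the 109. By direction, 21.7% of all genes were called higher and 19.9% lower, and of the well-expressed protein-coding genes 35.1% and 17.4%. The split moved with the scaling: it was 21 higher and 38 lower on TPM-scaled values, and 22 higher and 31 lower with voom on the recovered reads. The median log2 fold change was -0.04 over the 109 and 0.01 over all genes tested. In the trunk 24 rose and 10 fell (31.2%), against 25.1% of all genes (12.2% higher, 13% lower) and 31.4% of the well-expressed protein-coding genes (19.5% higher, 11.9% lower), with a median log2 fold change of 0.06 over the 109 and 0.00 over all genes. With voom that split was 20 higher and 15 lower.

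The summed level of the 109 was 1468 ± 42.4 FPKM in Ednrb-/- caudal, 1449 ± 11.48 in WT caudal, 1552 ± 13.6 in Ednrb-/- trunk and 1449 ± 48.0 in WT trunk libraries (SD, n = 4 each). As a share of reads the 109 were lower in Ednrb-/- caudal libraries, at 0.470% to 0.527%, against 0.551% to 0.583% in WT caudal libraries. In the trunk the shares were 0.562% to 0.610% in Ednrb-/- and 0.573% to 0.618% in WT libraries. The FPKM of all genes also summed higher in Ednrb-/- caudal libraries, to 268386 to 282291, against 250861 to 260071 in WT caudal libraries. By class, the 14 snoRNA hosts accounted for 13 of the 28 caudal rises and for 0 of the 26 falls. The 11 microRNA hosts accounted for 3 of the rises and 7 of the falls. The remaining 80 outside the Hox clusters held 12 rises and 18 falls, or 7 and 29 on TPM-scaled values and 7 and 23 with voom.

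**Figure D1:**
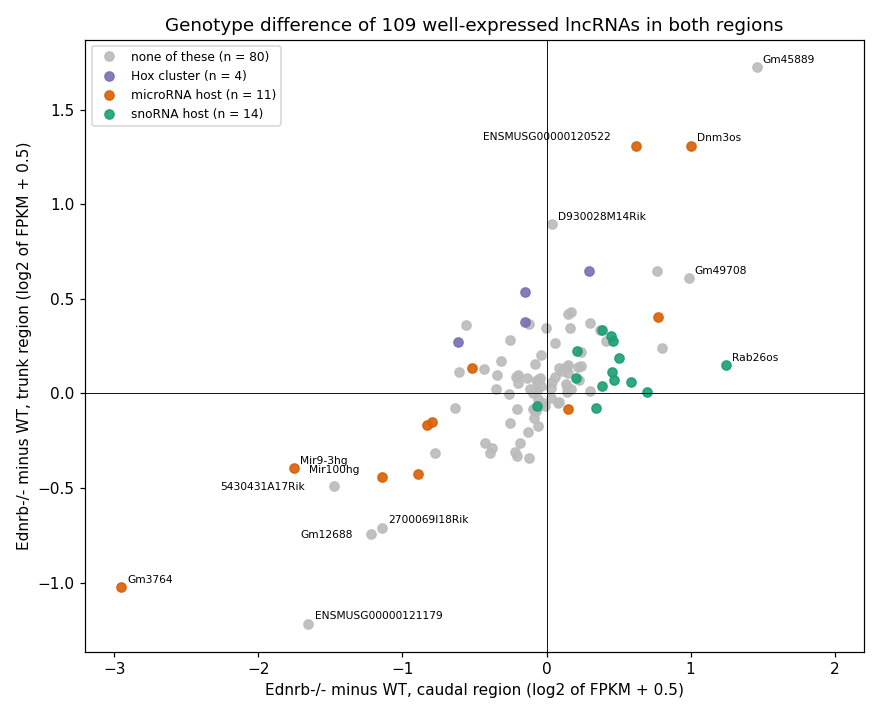
Each point is 1 of the 109 lncRNAs, placed by its Ednrb-/- minus WT difference on the log2(FPKM + 0.5) scale in the caudal region (horizontal) and in the trunk (vertical), coloured by class; 1 Hox cluster member, Gm53, is shown among the microRNA hosts. The snoRNA hosts lie to the right of 0 in the caudal region except Snhg18 at -0.07, and the lowest caudal point is the Mir9-1 host Gm3764 at -2.95.

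All 3 miR-9 hosts were lower in Ednrb-/- than in WT caudal tissue. MiR-9 is known from neural progenitors, where it acts on the timing of neuron formation. Gm3764, on chromosome 3 from 88113837 to 88137268 (mm39, plus strand), had 0.536, 0.0490, 0.908 and 0.115 FPKM in the 4 Ednrb-/- caudal libraries and 6.20, 4.53, 6.49 and 6.96 FPKM in the 4 WT caudal libraries. It had 6.00, 5.08, 6.42 and 4.02 FPKM in the Ednrb-/- trunk libraries and 8.45, 11.3, 13.3 and 12.9 FPKM in the WT trunk libraries. Each Ednrb-/- library lay below each WT library of its region, and the caudal Ednrb-/- libraries were nearly empty of this transcript. The log2 fold change was -2.95 (SE 0.25, adjusted p = 2.1e-06) in the caudal region, where 0.5 FPKM added before the log understates the fall. In the trunk it was -1.02 (SE 0.25, adjusted p = 0.008), a call that was lost with 0.1 FPKM added in place of 0.5 (adjusted p = 0.0865), and the caudal minus trunk difference of the 2 was -1.93 (SE 0.36, adjusted p = 0.0079).

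Mir9-3hg, on chromosome 7 from 79148856 to 79184151, had 2.14, 0.774, 2.69 and 1.07 FPKM in Ednrb-/- caudal and 6.44, 4.73, 7.22 and 7.29 FPKM in WT caudal libraries. The caudal groups did not overlap, and the log2 fold change was -1.76 (SE 0.23, adjusted p = 3.8e-05). Its trunk levels were 7.48, 6.48, 7.27 and 5.68 FPKM in Ednrb-/- and 7.35, 8.86, 10.4 and 9.51 FPKM in WT libraries, which overlapped and did not pass the test. C130071C03Rik, on chromosome 13, averaged 3.81 ± 1.08 FPKM in Ednrb-/- caudal and 6.87 ± 1.08 FPKM in WT caudal libraries (SD, n = 4 each), a log2 fold change of -0.80 (SE 0.15, adjusted p = 0.00055). This host kept more of its transcript than Gm3764 and Mir9-3hg: its lowest Ednrb-/- caudal library still held 2.82 FPKM.

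The hosts of miR-124, the most abundant microRNA of neurons in the mammalian brain, also fell in the caudal region. Mir124a-1hg had 5.12, 4.26, 6.13 and 3.88 FPKM in Ednrb-/- caudal and 10.5, 6.48, 9.84 and 9.32 FPKM in WT caudal libraries, with every Ednrb-/- library below every WT one. Its log2 fold change was -0.83 (SE 0.15, adjusted p = 0.00035). Mir124-2hg fell less, with 9.81 ± 1.95 FPKM in Ednrb-/- caudal and 14.2 ± 2.24 FPKM in WT caudal libraries (SD, n = 4 each), a log2 fold change of -0.51 (SE 0.14, adjusted p = 0.0071) and groups that overlapped. In the trunk neither passed the test: Mir124a-1hg averaged 11.54 ± 0.943 FPKM in Ednrb-/- and 13.1 ± 1.84 FPKM in WT, and Mir124-2hg 17.5 ± 1.93 FPKM in Ednrb-/- and 16.0 ± 2.33 FPKM in WT.

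Markers of neurons moved with these hosts. Of 10 neuron markers, among them Tubb3, Stmn2 and Dcx, 9 fell and 1 rose in Ednrb-/- caudal tissue, with a median log2 fold change of -1.20, and their summed level was 177 to 314 FPKM in Ednrb-/- against 411 to 547 FPKM in WT caudal libraries. In the trunk 1 rose and 1 fell, and the sum was 473 to 544 FPKM in Ednrb-/- against 478 to 617 FPKM in WT libraries. None of the 10 was at 0 in any library. Skeletal muscle markers fell as well, 6 of 8 in the caudal region, with a sum of 74.3 to 102 FPKM in Ednrb-/- against 186 to 200 FPKM in WT caudal libraries. Of 9 red cell markers 5 fell and 1 rose there, with a sum of 3745 to 6092 FPKM in Ednrb-/- against 5396 to 6541 FPKM in WT caudal libraries. In the trunk 6 of the 8 muscle markers fell and 2 rose, with a sum of 237 to 252 FPKM in Ednrb-/- against 327 to 412 FPKM in WT libraries. Of the red cell markers 6 fell and 1 rose in the trunk, with a sum of 3686 to 4188 FPKM in Ednrb-/- against 4811 to 6378 FPKM in WT libraries. The part of these cells in the fall of the miR-9 and miR-124 hosts was not tested. Of all genes tested, 19.9% were called lower and 21.7% higher in the caudal region, and 13% lower and 12.2% higher in the trunk. In the list of lncRNAs known from neural tissue, 9 of the 11 tested fell in the caudal region and 0 rose, with a median log2 fold change of -0.61. That list shares Miat, Mir124a-1hg and Mir9-3hg with the 109.

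Mir100hg, a host known for miR-100 and miR-125b, which accumulate as cells differentiate, had 6.52, 3.24, 7.41 and 4.70 FPKM in Ednrb-/- caudal and 12.3, 12.2, 9.51 and 15.3 FPKM in WT caudal libraries. Its log2 fold change was -1.14 (SE 0.19, adjusted p = 0.00024) and the groups did not overlap. In the trunk it had 15.1, 13.1, 16.1 and 11.3 FPKM in Ednrb-/- and 19.2, 19.2, 19.2 and 17.9 FPKM in WT libraries. The trunk groups did not overlap either, but the difference missed the threshold (adjusted p = 0.1). Gm28119, within it, varied more, with 22.4, 9.21, 27.8 and 14.0 FPKM in Ednrb-/- caudal and 30.3, 31.8, 26.2 and 40.0 FPKM in WT caudal libraries, and a log2 fold change of -0.89 (SE 0.24, adjusted p = 0.0071). Library 2 was the lowest Ednrb-/- caudal library for both, and since the spans overlap on the same strand the pair is not independent.

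Mir17hg, host of the miR-17 to miR-92a cluster that is known to act in growing progenitor cells, went the other way. It had 25.9, 30.4, 28.4 and 25.5 FPKM in Ednrb-/- caudal and 16.6, 17.01, 16.6 and 13.4 FPKM in WT caudal libraries, and 19.9, 22.4, 21.9 and 21.6 FPKM in Ednrb-/- trunk libraries and 16.4, 14.3, 17.8 and 16.0 FPKM in WT trunk libraries. Every Ednrb-/- library lay above every WT library of its region. The log2 fold change was 0.78 (SE 0.08, adjusted p = 6.8e-06) in the caudal region and 0.40 (SE 0.08, adjusted p = 0.0021) in the trunk. The gene lies on chromosome 14 from 115280311 to 115284159, 11.2 Mb from Ednrb, just beyond the stretch around Ednrb that was left out. Any difference in that flank between the Ednrb-/- and WT chromosomes and the Ednrb genotype cannot be told apart. Of the other 6 lncRNAs among the 109 on chromosome 14, the nearest to Ednrb was B930095G15Rik at 17.4 Mb, which fell in the caudal region, with a log2 fold change of -0.43 (SE 0.07, adjusted p = 0.00024). It overlaps Farp1 on the same strand.

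Dnm3os, host of miR-199a and miR-214 and known from embryonic mesenchyme and the growing skeleton, rose in both regions. It had 9.87, 7.39, 14.3 and 9.37 FPKM in Ednrb-/- caudal and 5.16, 5.07, 3.53 and 5.39 FPKM in WT caudal libraries, and 20.9, 16.9, 22.1 and 15.2 FPKM in Ednrb-/- trunk libraries and 8.37, 7.01, 7.07 and 6.49 FPKM in WT trunk libraries. The groups were apart in both regions, with log2 fold changes of 1.00 (SE 0.17, adjusted p = 0.00029) caudally and 1.31 (SE 0.17, adjusted p = 0.00011) in the trunk. Dnm3os lies antisense within Dnm3, the gene of a dynamin, which fell instead, to 0.374 ± 0.0709 FPKM in Ednrb-/- against 0.819 ± 0.175 FPKM in WT caudal libraries and to 0.836 ± 0.135 FPKM in Ednrb-/- against 1.51 ± 0.136 FPKM in WT trunk libraries (SD, n = 4 each).

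ENSMUSG00000120522, a row of 585 bases over Mir219a-2 on chromosome 2 that overlaps Urm1 on the opposite strand, also rose in both regions. Its levels were 23.4, 22.2, 26.6 and 20.8 FPKM in Ednrb-/- caudal and 13.2, 16.1, 19.8 and 11.6 FPKM in WT caudal libraries, a log2 fold change of 0.62 (SE 0.15, adjusted p = 0.0035). In the trunk they were 16.2, 16.9, 14.2 and 18.98 FPKM in Ednrb-/- and 6.27, 7.18, 7.38 and 4.94 FPKM in WT libraries, and the rise there was 1.30 (SE 0.15, adjusted p = 4.3e-05). The groups did not overlap in either region. MiR-219 is best known from oligodendrocytes. The microRNA row itself, which may take the same reads, averaged 8.61 FPKM over the 16 libraries.

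Without the 3 libraries with both Xist and Ddx3y, 3 of the 11 hosts rose and 7 fell in the caudal region. Messenger RNAs of proteins that process or carry microRNAs, or that block the maturation of some, were read beside them. Of 11 tested, 7 rose and 2 fell in the caudal region (median log2 fold change 0.21). Of all genes tested, 21.7% were called higher there and 19.9% lower. The largest of these rises was that of Lin28a, an RNA-binding protein that blocks the maturation of let-7, at 20.2 ± 8.96 FPKM in Ednrb-/- caudal and 3.60 ± 0.718 FPKM in WT caudal libraries (SD, n = 4 each), followed by its paralog Lin28b at 12.6 ± 2.39 FPKM in Ednrb-/- and 6.01 ± 0.926 FPKM in WT.

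**Figure D2:**
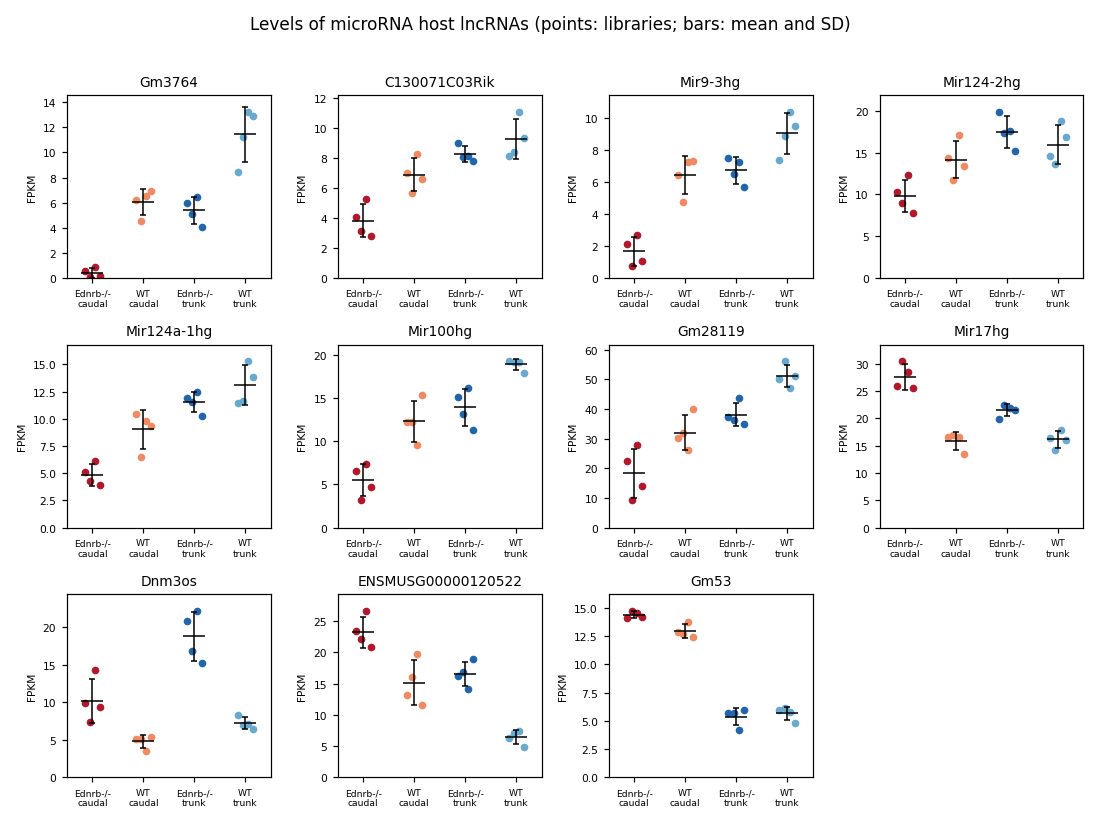
FPKM (vertical axis) of the 11 microRNA hosts in each library, by group, with Ednrb-/- left of WT for each region; black bars are the mean and SD. Gm3764 sits below 1 FPKM in all 4 Ednrb-/- caudal libraries and above 4 FPKM in all others, while Mir17hg, Dnm3os and ENSMUSG00000120522 sit higher in Ednrb-/- than in WT in both regions.

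The snoRNA hosts moved together. Of the 14, 13 rose and 0 fell in Ednrb-/- caudal tissue, where 21.7% of all genes tested and 35.1% of the well-expressed protein-coding genes were called higher, and their median log2 fold change was 0.45. In the trunk 4 rose and 0 fell, with a median of 0.10, against 12.2% of all genes called higher. Their summed level was 293 ± 23.0 FPKM in Ednrb-/- caudal and 215 ± 11.9 FPKM in WT caudal libraries, and 240 ± 12.4 FPKM in Ednrb-/- trunk and 219 ± 9.07 FPKM in WT trunk libraries (SD, n = 4 each). The 42 snoRNA rows inside them do not give the snoRNAs themselves: 40 were listed at 0 in every library. On TPM-scaled values 11 of the 14 were called higher in the caudal region, and without the 3 libraries with Xist and Ddx3y 13 were, with 2 in the trunk. In the trunk the count was also 2 without Ednrb-/- trunk library 2 or 4 or without WT trunk library 2.

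Gas5, named for its rise in growth-arrested cells and host of 10 annotated snoRNAs, was the most abundant of the 14. It had 56.1, 66.9, 57.5 and 61.2 FPKM in Ednrb-/- caudal and 46.2, 47.0, 48.8 and 42.6 FPKM in WT caudal libraries, and all 4 Ednrb-/- libraries lay above all 4 WT ones. In the trunk it had 43.2, 48.1, 46.7 and 48.6 FPKM in Ednrb-/- and 47.4, 44.2, 47.1 and 42.9 FPKM in WT libraries, which overlapped. The caudal log2 fold change was 0.38 (SE 0.06, adjusted p = 0.00011), and it exceeded that of the trunk by 0.35 (SE 0.08, adjusted p = 0.023). The difference between regions just missed the threshold without Ednrb-/- caudal library 4, Ednrb-/- trunk library 1 or WT trunk library 1 (0.31 to 0.34, adjusted p = 0.0509 to 0.0515).

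Snhg1, which holds 8 annotated snoRNAs, had 27.0, 34.4, 28.1 and 30.5 FPKM in Ednrb-/- caudal and 20.1, 23.3, 21.3 and 19.5 FPKM in WT caudal libraries, a log2 fold change of 0.50 (SE 0.08, adjusted p = 0.00011). Zfas1, which holds Snord12 and 2 more annotated snoRNAs, had 22.1, 25.0, 22.0 and 21.4 FPKM in Ednrb-/- caudal and 14.1, 16.3, 14.8 and 14.3 FPKM in WT caudal libraries, a log2 fold change of 0.59 (SE 0.07, adjusted p = 1.4e-05). Snhg8 had 21.8, 27.5, 25.3 and 23.6 FPKM in Ednrb-/- caudal and 14.1, 15.7, 14.3 and 15.4 FPKM in WT caudal libraries. For all 3 the caudal groups were apart. Snhg8 had the second largest caudal rise of the 14, 0.70 (SE 0.08, adjusted p = 1.3e-05), while its trunk levels of 19.4 ± 1.37 FPKM in Ednrb-/- and 19.3 ± 2.01 FPKM in WT did not pass the test (SD, n = 4 each).

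The largest caudal rise was that of Rab26os, a row of 519 bases on chromosome 17 that holds 1 snoRNA and lies antisense within Rab26. It had 8.27, 8.34, 10.7 and 8.68 FPKM in Ednrb-/- caudal and 2.98, 3.21, 4.53 and 3.40 FPKM in WT caudal libraries, and 5.52, 7.42, 7.14 and 7.45 FPKM in Ednrb-/- trunk libraries and 8.32, 4.61, 6.74 and 5.39 FPKM in WT trunk libraries. Only the caudal groups were apart, with a log2 fold change of 1.25 (SE 0.16, adjusted p = 2.7e-05) and a difference between regions of 1.1 (SE 0.22, adjusted p = 0.011). Rab26 itself, which encodes a small GTPase, stayed at or under 0.228 FPKM in all libraries.

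The other rises were smaller: 1110038B12Rik (0.45 on the log2 scale, adjusted p = 3.6e-05), 2410006H16Rik (0.47, 1.5e-05), Snhg5 (0.46, 0.00037), Snhg6 (0.46, 0.0002), Epb41l4aos (0.38, 0.0049) and Snhg12 (0.34, 0.00082). AI506816 and Snhg17 rose least, by 0.21 (adjusted p = 0.039) and 0.20 (adjusted p = 0.0051), and the caudal groups of both overlapped. For AI506816 the call was lost without Ednrb-/- caudal library 2 or 4 or WT caudal library 1 or 4 (0.15 to 0.22, adjusted p = 0.0662 to 0.142), and its trunk call was lost for 11 of the 16 libraries left out singly (0.18 to 0.25, adjusted p = 0.0509 to 0.138). Snhg18 alone was not called, with 6.53, 5.86, 5.84 and 7.02 FPKM in Ednrb-/- caudal and 7.41, 6.54, 5.98 and 6.62 FPKM in WT caudal libraries (adjusted p = 0.55). The 4 that also rose in the trunk were 1110038B12Rik, AI506816, Epb41l4aos and Snhg6. Gas5, Snhg8, Zfas1, Snhg12, Rab26os and 2410006H16Rik rose more in the caudal region than in the trunk by the test of that difference, and for none of the 14 was the reverse called.

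**Figure D3:**
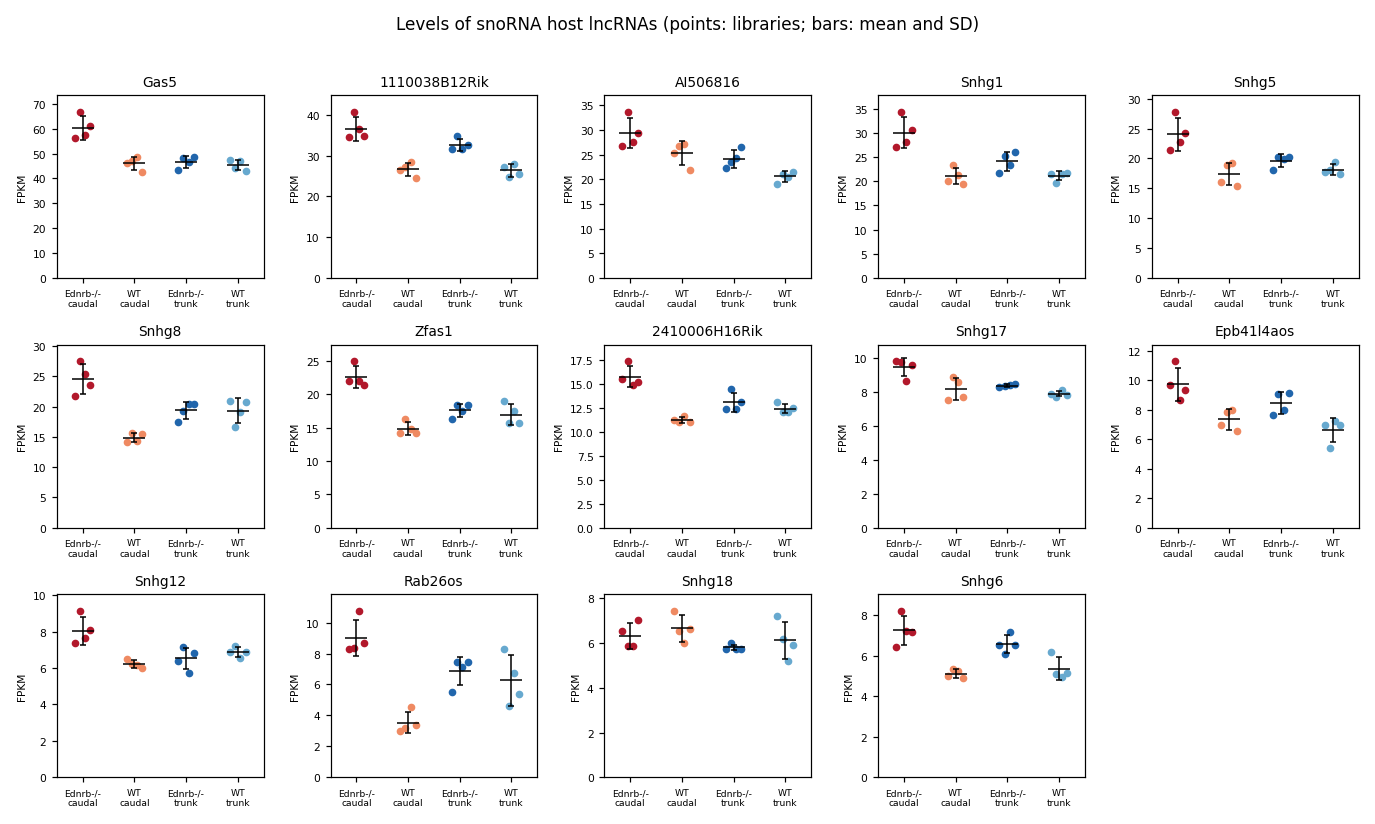
FPKM (vertical axis) of the 14 snoRNA hosts in each library, by group, with Ednrb-/- left of WT for each region; black bars are the mean and SD. In 11 of the 14 panels every Ednrb-/- caudal library sits above every WT caudal library, as for 19.1% of all genes tested; the exceptions are AI506816, Snhg17 and Snhg18.

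Genes that work with snoRNAs, and genes of cell division, rose with the hosts in the caudal region. The messenger RNAs of all 9 proteins of the snoRNA particles rose there (median log2 fold change 0.43), and those of 6 rose in the trunk (0.27). Of all genes tested, 21.7% were called higher in the caudal region and 12.2% in the trunk. Fbl, the methyltransferase of the box C/D particle, averaged 51.9 ± 6.46 FPKM in Ednrb-/- caudal and 34.9 ± 3.34 FPKM in WT caudal libraries (SD, n = 4 each). Of 10 cell cycle genes, 10 rose in the caudal region and 10 in the trunk, with a sum of 817 to 944 FPKM in Ednrb-/- caudal against 620 to 693 FPKM in WT caudal libraries; none was at 0 in any library. The genotype difference was called as differing between regions for 1 of the 9 particle genes, 0 of the 10 cell cycle genes and 6 of the 14 hosts. That test called 6.76% of all genes, and 2.98% as more positive in the caudal region. The median caudal minus trunk difference was 0.20 for the particle genes and 0.17 for the cell cycle genes. The part of both sets in the rise of the hosts was not tested. Spliced transcripts of several of these hosts are known to be removed by nonsense-mediated decay. Of the genes of 10 factors of that pathway 3 rose in the caudal region and 0 fell (median 0.04).

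Several snoRNA hosts are known to start in a run of pyrimidines, as genes of ribosomal proteins do, and the windows around the RefSeq starts are given for this reason. A tract was counted where a C within 15 bases before or after the start was followed by at least 5 bases that were C or T. Only the transcribed strand was read, and runs of C and T without such a C were not counted. A tract was found for 8 of the 12 hosts with a RefSeq entry that could be read, and for 29.5% of 27025 gene symbols with an entry. TATAAA, 45 to 16 bases before the start on the same strand, was found for 4 of the 12 and for 2.6% of all symbols. Each window below begins 30 bases before the start and has 60 bases, on GRCm38.p6, with the tract in capitals. Snhg5 has none by this count, and of the 2 RefSeq starts of Gas5 only the one shown has a tract.
Gas5, chr1:161035136-161035195, plus strand: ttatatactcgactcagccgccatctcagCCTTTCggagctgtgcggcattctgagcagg
Snhg8, chr3:123508307-123508366, minus strand: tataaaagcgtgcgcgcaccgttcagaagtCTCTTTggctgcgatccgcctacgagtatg
Snhg12, chr4:132308648-132308707, plus strand: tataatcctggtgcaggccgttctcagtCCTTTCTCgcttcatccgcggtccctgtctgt
Rab26os, chr17:24528221-24528280, plus strand: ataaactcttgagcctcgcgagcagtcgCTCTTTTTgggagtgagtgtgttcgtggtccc
Snhg5, chr9:88522868-88522927, minus strand: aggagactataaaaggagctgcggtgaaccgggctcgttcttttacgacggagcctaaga

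The pyrimidine run was sought after the host values were known and is a description of these windows. Of the 12, Gas5, Snhg8, Snhg12, AI506816, 2410006H16Rik, Snhg18, Rab26os and 1110038B12Rik held a tract as counted here. Snhg1, Snhg5, Snhg17 and Zfas1 did not by this count. Among them, Zfas1, Snhg1 and Snhg5 rose by 0.59, 0.50 and 0.46 on the log2 scale in the caudal region. The windows of Snhg1, Snhg5 and Snhg17 did hold runs of at least 6 C or T bases that the count missed. Snhg18, which did not pass the test in the caudal region, held a tract that ended before the start.

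Hox clusters, the arrays of genes that set position along the body axis, held 5 of the 109: Hoxb5os, Gm53 and Gm11536 in Hoxb on chromosome 11, Gm15050 in Hoxa on chromosome 6 and Haglr in Hoxd on chromosome 2. In the trunk 3 of them rose in Ednrb-/- and 0 fell, where 12.2% of all genes tested were called higher, and in the caudal region 1 fell and 0 rose, where 19.9% were called lower. Hoxb5os, antisense to Hoxb5 and Hoxb6, had 36.3, 39.5, 35.6 and 39.9 FPKM in Ednrb-/- trunk libraries and 21.5, 19.1, 31.9 and 25.2 FPKM in WT trunk libraries, which did not overlap, with a log2 fold change of 0.64 (SE 0.14, adjusted p = 0.0045). Hoxb6 on the other strand averaged 42.4 ± 1.98 FPKM in Ednrb-/- trunk libraries and 39.8 ± 4.22 FPKM in WT trunk libraries (SD, n = 4 each) and was not called.

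Gm15050, antisense to Hoxa3, had 15.3, 19.7, 17.5 and 17.6 FPKM in Ednrb-/- trunk libraries and 11.0, 10.6, 14.7 and 11.7 FPKM in WT trunk libraries, a log2 fold change of 0.54 (SE 0.11, adjusted p = 0.0025). Its caudal levels of 10.7 ± 1.59 FPKM in Ednrb-/- and 11.9 ± 0.644 FPKM in WT libraries did not pass the test, and the difference between regions did (log2 fold change -0.68, SE 0.15, adjusted p = 0.018). Haglr starts 84 bases from Hoxd1 on the opposite strand and overlaps Hoxd3. It had 5.82, 5.84, 6.22 and 4.93 FPKM in Ednrb-/- trunk libraries and 4.13, 3.53, 5.14 and 4.41 FPKM in WT trunk libraries, a log2 fold change of 0.38 (SE 0.10, adjusted p = 0.01) with ranges that overlapped. Hoxd1 and Hoxd3 also rose in the trunk, by log2 fold changes of 0.93 (SE 0.10, adjusted p = 4e-05) and 0.50 (SE 0.09, adjusted p = 0.0015).

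Gm11536, antisense to Hoxb3, was the member that fell caudally. It had 7.16, 7.19, 6.44 and 4.51 FPKM in Ednrb-/- caudal and 9.63, 8.90, 10.4 and 10.5 FPKM in WT caudal libraries, a log2 fold change of -0.62 (SE 0.15, adjusted p = 0.0039), and Hoxb3 fell too, with a log2 fold change of -0.36 (SE 0.09, adjusted p = 0.0031). Gm53, the Mir196a-1 host in the Hoxb cluster, did not pass the test between genotypes in either region, but separated the regions. It had 5.70, 5.68, 4.22 and 5.93 FPKM in Ednrb-/- trunk libraries, against 14.1, 14.7, 14.6 and 14.2 FPKM in Ednrb-/- caudal libraries. In WT it had 5.99, 6.13, 5.81 and 4.86 FPKM in trunk and 12.9, 12.7, 13.8 and 12.5 FPKM in caudal libraries. All 8 caudal libraries thus lay above all 8 trunk libraries, with log2 fold changes of trunk over caudal of -1.35 (SE 0.09, adjusted p = 5.1e-08) in Ednrb-/- and -1.12 (SE 0.09, adjusted p = 5.9e-07) in WT. MiR-196a is known to pair with Hox messenger RNAs, and its row, which may take reads of the host, averaged 18.03 ± 3.43 FPKM in Ednrb-/- trunk libraries, against 51.0 ± 5.98 FPKM in Ednrb-/- caudal libraries. Of 15 tested lncRNAs known from Hox clusters or the body axis, most of them below the limit of 5 FPKM, 8 were lower and 0 higher in trunk than in caudal tissue of Ednrb-/- embryos, and the counts were 8 and 0 in WT too. Of all genes tested, 18.9% were called lower in the trunk of Ednrb-/- embryos and 8.35% in that of WT embryos.

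**Figure D4:**
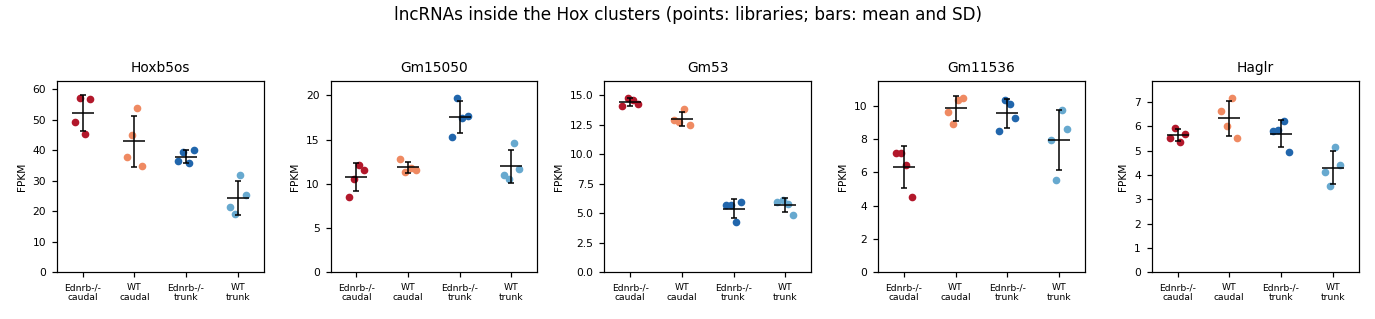
FPKM (vertical axis) of the 5 lncRNAs inside Hox clusters in each library, by group, with Ednrb-/- left of WT for each region; black bars are the mean and SD. Gm53 sits above 12 FPKM in all caudal and below 7 FPKM in all trunk libraries, and Hoxb5os, Gm15050 and Haglr have higher means in Ednrb-/- than in WT in the trunk.

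The most abundant of the 109 included RNAs that act in the nucleus or cytoplasm of most cells. Norad, a cytoplasmic RNA that binds Pumilio proteins and guards chromosome number, differed little between groups. It had 80.8, 79.6, 79.8 and 81.7 FPKM in Ednrb-/- caudal, 80.1, 86.2, 83.7 and 87.4 FPKM in WT caudal, 82.8, 82.3, 80.1 and 78.1 FPKM in Ednrb-/- trunk libraries and 84.8, 80.6, 87.4 and 88.1 FPKM in WT trunk libraries. The groups overlapped in both regions, and the log2 fold changes of -0.07 (SE 0.03, adjusted p = 0.14) and -0.08 (SE 0.03, adjusted p = 0.13) missed the threshold, though the caudal one passed on TPM-scaled, quantile-normalized and voom values (-0.17, -0.23 and -0.14) and the trunk one on the quantile-normalized and voom values (-0.14 and -0.11). Oip5os1, known as Cyrano for its highly conserved miR-7 site, averaged 28.2 ± 1.41 FPKM in Ednrb-/- caudal, 29.4 ± 1.02 FPKM in WT caudal, 29.0 ± 1.89 FPKM in Ednrb-/- trunk libraries and 27.7 ± 0.727 FPKM in WT trunk libraries (SD, n = 4 each) and was called in none of the 5 comparisons, although the caudal genotype difference passed with the same 3 scalings.

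Malat1, a nuclear speckle RNA, had 71.0, 57.5, 70.4 and 55.7 FPKM in Ednrb-/- caudal and 81.7, 73.4, 72.8 and 95.8 FPKM in WT caudal libraries. Its log2 fold change was -0.34 (SE 0.12, adjusted p = 0.025). In the trunk it had 107, 94.2, 91.2 and 74.6 FPKM in Ednrb-/- and 85.1, 84.4, 95.2 and 76.3 FPKM in WT libraries, which overlapped. That call was lost without Ednrb-/- caudal library 2 or 4 or WT caudal library 1 or 4, with log2 fold changes of -0.34 to -0.26 and adjusted p of 0.0533 to 0.0915. Miat, a nuclear RNA known from neurons, had 42.2, 32.2, 44.6 and 34.2 FPKM in Ednrb-/- caudal and 53.0, 53.4, 71.3 and 56.9 FPKM in WT caudal libraries. Its trunk levels were 58.0, 63.2, 59.0 and 64.9 FPKM in Ednrb-/- and 46.1, 55.5, 67.05 and 59.7 FPKM in WT libraries. The caudal groups were apart (log2 fold change -0.61, SE 0.12, adjusted p = 0.00096), the trunk groups were not, and the difference between regions passed the test (log2 fold change -0.72, SE 0.17, adjusted p = 0.024), but not without Ednrb-/- caudal library 4 (-0.67, adjusted p = 0.0552). The fall of Miat goes beside that of the neuron markers given above.

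Of 8 tested lncRNAs known from nuclear bodies or chromatin, Malat1 and Miat among them, 4 fell and 0 rose in the caudal region (median log2 fold change -0.12), and 1 fell and 0 rose in the trunk (0.06). Of all genes tested, 19.9% were called lower in the caudal region and 13% in the trunk.

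Peg13, an imprinted RNA expressed from the paternal allele within Trappc9, fell in both regions. It had 7.42, 5.59, 7.71 and 6.46 FPKM in Ednrb-/- caudal and 12.3, 10.4, 12.4 and 12.7 FPKM in WT caudal libraries, and 11.4, 10.7, 10.6 and 10.4 FPKM in Ednrb-/- trunk libraries and 11.8, 13.4, 15.1 and 14.1 FPKM in WT trunk libraries. No Ednrb-/- library reached a WT library of its region, and the log2 fold changes were -0.78 (SE 0.09, adjusted p = 1.7e-05) and -0.31 (SE 0.09, adjusted p = 0.02). The trunk call was lost without Ednrb-/- trunk library 4 or WT trunk library 3 or 4 (-0.30 to -0.26, adjusted p = 0.0529 to 0.0641). Trappc9, on the same strand around it, fell as well, with a log2 fold change of -0.23 (SE 0.06, adjusted p = 0.0063) in the caudal region.

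Chaserr, which begins before Chd2 and overlaps it on the same strand, is known in the mouse to restrain that chromatin remodeller in cis. It fell in both regions. It had 6.51, 7.24, 7.81 and 6.90 FPKM in Ednrb-/- caudal and 9.38, 9.31, 9.29 and 9.91 FPKM in WT caudal libraries, a log2 fold change of -0.39 (SE 0.06, adjusted p = 0.00014). In the trunk it had 7.76, 7.67, 7.57 and 7.86 FPKM in Ednrb-/- and 9.66, 9.84, 10.8 and 8.60 FPKM in WT libraries, a change of -0.31 (SE 0.06, adjusted p = 0.0018), and in both regions the groups were apart. Chd2 averaged 11.2 ± 0.120 FPKM in Ednrb-/- caudal and 10.8 ± 0.539 FPKM in WT caudal libraries, and 11.1 ± 0.220 FPKM in Ednrb-/- trunk libraries and 10.4 ± 0.174 FPKM in WT trunk libraries (SD, n = 4 each). It was called in neither region (adjusted p = 0.32 and 0.075).

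Foxd3, a transcription factor of premigratory neural crest and its glial branch, has a divergent lncRNA partner among the 109. Gm12688 starts 648 bases from Foxd3 on the opposite strand of chromosome 4. It had 4.40, 3.90, 4.46 and 2.52 FPKM in Ednrb-/- caudal and 9.03, 7.76, 11.1 and 9.91 FPKM in WT caudal libraries, and 7.84, 7.68, 7.25 and 6.09 FPKM in Ednrb-/- trunk libraries and 11.4, 11.4, 13.4 and 13.3 FPKM in WT trunk libraries. Every Ednrb-/- library lay below every WT library of its region, with log2 fold changes of -1.22 (SE 0.14, adjusted p = 1.6e-05) and -0.74 (SE 0.14, adjusted p = 0.0016). Foxd3 fell with it, to 2.34, 1.96, 2.71 and 2.19 FPKM in Ednrb-/- against 3.90, 3.38, 4.37 and 4.60 FPKM in WT caudal libraries and to 2.67, 2.69, 2.34 and 3.03 FPKM in Ednrb-/- against 3.20, 3.76, 3.68 and 4.32 FPKM in WT trunk libraries, with log2 fold changes of -0.70 (SE 0.11, adjusted p = 0.0001) and -0.41 (SE 0.11, adjusted p = 0.01).

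A similar fall was measured for 2700069I18Rik, which overlaps the start of Zfhx4, a large zinc-finger homeobox gene, on the opposite strand of chromosome 3. It had 4.84, 2.91, 5.24 and 3.68 FPKM in Ednrb-/- caudal and 8.91, 9.52, 8.17 and 12.3 FPKM in WT caudal libraries, and 12.7, 8.73, 10.7 and 7.67 FPKM in Ednrb-/- trunk libraries and 13.6, 19.02, 16.0 and 17.1 FPKM in WT trunk libraries. The log2 fold changes were -1.14 (SE 0.18, adjusted p = 0.00013) and -0.71 (SE 0.18, adjusted p = 0.0087), with groups apart in both regions. Zfhx4 fell in the caudal region (log2 fold change -0.60, SE 0.11, adjusted p = 0.00042) and did not pass in the trunk, where it averaged 20.05 ± 2.35 FPKM in Ednrb-/- and 21.7 ± 1.25 FPKM in WT libraries (SD, n = 4 each).

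ENSMUSG00000121179, antisense within Copg2 and 59141 bases from the start of the imprinted gene Mest on chromosome 6, had the largest fall of the 109 in the trunk and the third largest in the caudal region. It had 1.58, 0.924, 1.75 and 0.742 FPKM in Ednrb-/- caudal and 6.13, 3.49, 4.53 and 5.56 FPKM in WT caudal libraries, and 5.14, 4.18, 4.42 and 2.92 FPKM in Ednrb-/- trunk libraries and 8.82, 10.4, 11.4 and 10.2 FPKM in WT trunk libraries. The log2 fold changes were -1.65 (SE 0.20, adjusted p = 2e-05) and -1.22 (SE 0.20, adjusted p = 0.00055). Its neighbours did not follow: Copg2, a coat protein gene, averaged 21.2 ± 0.787 FPKM in Ednrb-/- caudal and 20.4 ± 0.668 FPKM in WT caudal libraries and was not called, and Mest rose by 0.43 (SE 0.06, adjusted p = 4.2e-05) in the caudal region.

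**Figure D5:**
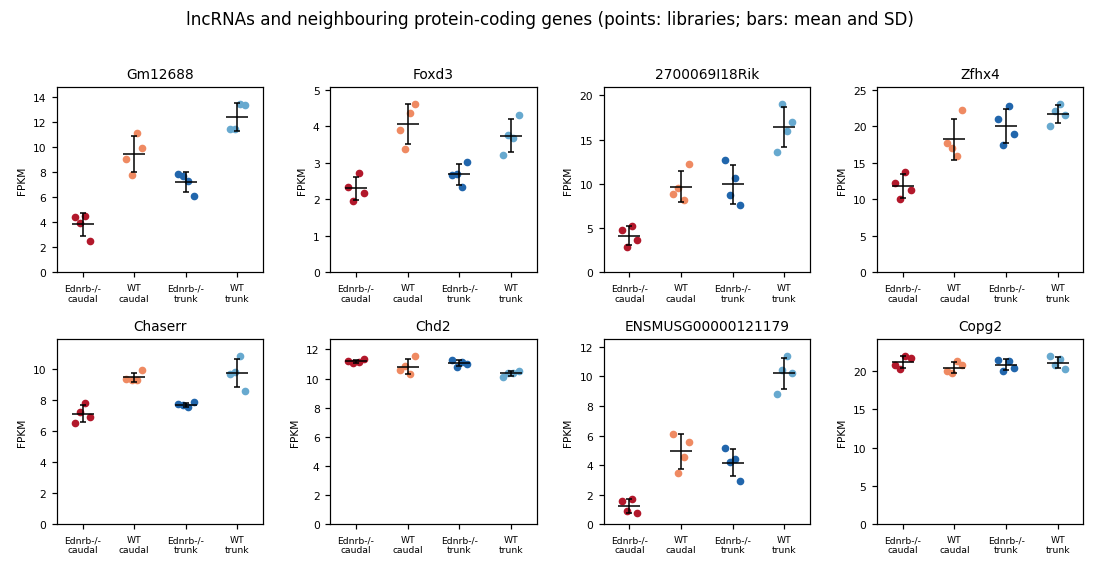
FPKM (vertical axis) of 4 lncRNAs and, to the right of each, the protein-coding gene it neighbours or overlaps, in each library by group, with Ednrb-/- left of WT for each region; black bars are the mean and SD. Gm12688 and Foxd3 sit lower in Ednrb-/- in both regions, whereas Chd2 and Copg2 keep to a narrow range while Chaserr and ENSMUSG00000121179 are lower.

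Gm45889, on chromosome 7, had the largest rise of the 109 in both regions. Its levels were 4.36, 4.74, 6.06 and 6.82 FPKM in Ednrb-/- caudal and 2.60, 2.01, 1.48 and 0.885 FPKM in WT caudal libraries, and 11.3, 11.0, 10.6 and 13.5 FPKM in Ednrb-/- trunk libraries and 5.88, 6.12, 1.30 and 1.83 FPKM in WT trunk libraries. The WT trunk libraries split, with 1 and 2 above 5 FPKM and 3 and 4 below 2 FPKM, yet every Ednrb-/- library lay above every WT library of its region. The log2 fold changes were 1.46 (SE 0.36, adjusted p = 0.0043) and 1.72 (SE 0.36, adjusted p = 0.003). AU020206 had 17.5, 20.3, 17.7 and 18.7 FPKM in Ednrb-/- caudal and 11.4, 10.9, 9.90 and 10.6 FPKM in WT caudal libraries, and rose by 0.76 (SE 0.08, adjusted p = 8.5e-06) there and by 0.65 (SE 0.08, adjusted p = 8.3e-05) in the trunk. Gm49708 averaged 11.52 ± 0.225 FPKM in Ednrb-/- caudal and 5.83 ± 1.94 FPKM in WT caudal libraries (SD, n = 4 each), a log2 fold change of 0.99 (SE 0.20, adjusted p = 0.0011), where WT caudal library 3 at 3.10 FPKM was the lowest. No role of these 3 RNAs is given here.

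5430416N02Rik, named after its values were seen, showed a small rise with a narrow spread. It had 7.27, 7.17, 7.26 and 7.21 FPKM in Ednrb-/- caudal and 5.44, 5.58, 5.49 and 5.36 FPKM in WT caudal libraries. In the trunk it had 7.03, 7.05, 6.96 and 6.56 FPKM in Ednrb-/- and 5.57, 5.06, 5.48 and 5.35 FPKM in WT libraries. The log2 fold changes of 0.37 (SE 0.04, adjusted p = 6.6e-06) and 0.34 (SE 0.04, adjusted p = 4.3e-05) passed the test, with groups apart in both regions. D930028M14Rik, antisense within Pou2f2, changed in the trunk alone of the 2 regions at the threshold used, with 24.0, 24.7, 19.7 and 29.1 FPKM in Ednrb-/- and 15.7, 8.41, 16.4 and 12.1 FPKM in WT trunk libraries (log2 fold change 0.89, SE 0.19, adjusted p = 0.0033), and the test of the difference between regions missed the threshold (adjusted p = 0.067).

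Between regions, 28 of the 109 were higher and 19 lower in trunk than in caudal tissue of Ednrb-/- embryos (43.1%), against 36.2% of all genes tested (17.3% higher, 18.9% lower) and 45.8% of the well-expressed protein-coding genes (15.5% higher, 30.2% lower). On TPM-scaled values the split was 33 higher and 14 lower. In WT embryos 12 were higher and 11 lower (21.1%), against 18% of all genes (9.69% higher, 8.35% lower) and 21% of the well-expressed protein-coding genes (8.92% higher, 12.1% lower). The WT count of higher lncRNAs was 7 without WT caudal library 2. These comparisons share their libraries with the genotype comparisons. Of the snoRNA hosts, 10 were lower and 0 higher in Ednrb-/- trunk than caudal tissue, and of the microRNA hosts 8 were higher and 3 lower; in WT, 2 snoRNA hosts were higher and 1 lower, and 4 microRNA hosts were higher and 2 lower. The 4 microRNA hosts higher in WT trunk tissue were Mir100hg, Dnm3os, Mir124a-1hg and Gm3764, and the count was 0 without WT caudal library 2 or WT trunk library 3, 1 without WT trunk library 2 or 4, 2 without WT trunk library 1, and 7 with voom. The 1 lower snoRNA host, AI506816, lost that call without WT caudal library 2 or 3 or WT trunk library 1. Without the 3 libraries with Xist and Ddx3y, 9 snoRNA hosts were lower in Ednrb-/- trunk than caudal tissue and 8 microRNA hosts were higher and 2 lower, and in WT 2 snoRNA hosts were higher and 0 lower and 3 microRNA hosts were higher and 2 lower.

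The lncRNA with the largest called region difference in WT among those higher in the trunk was 5430431A17Rik, on chromosome 7. It had 6.00, 7.35, 8.27 and 8.56 FPKM in Ednrb-/- trunk libraries, against 1.59, 1.13, 1.70 and 1.20 FPKM in Ednrb-/- caudal libraries, and 10.5, 11.2, 11.2 and 9.92 FPKM in WT trunk libraries, against 3.61, 5.26, 5.24 and 5.07 FPKM in WT caudal libraries. All 8 trunk libraries lay above all 8 caudal ones, with trunk over caudal log2 fold changes of 2.08 (SE 0.13, adjusted p = 4e-08) in Ednrb-/- and 1.09 (SE 0.13, adjusted p = 3.6e-05) in WT. It also fell in Ednrb-/- against WT embryos, with log2 fold changes of -1.47 (SE 0.13, adjusted p = 2.5e-06) in the caudal region and -0.49 (SE 0.13, adjusted p = 0.012) in the trunk. Gm28876, on chromosome 15, averaged 9.58 ± 1.44 FPKM in Ednrb-/- trunk libraries, against 2.96 ± 0.391 FPKM in Ednrb-/- caudal libraries, and 8.45 ± 1.38 FPKM in WT trunk libraries, against 3.83 ± 0.778 FPKM in WT caudal libraries (SD, n = 4 each), with log2 fold changes of 1.54 (SE 0.14, adjusted p = 2e-06) and 1.05 (SE 0.14, adjusted p = 0.00012), and was not called between genotypes.

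The genotype difference itself differed between the regions for 19 of the 109, which is 17.4%, against 6.76% of all genes tested and 8.42% of the well-expressed protein-coding genes. It was more positive in the caudal region for 6, all of them snoRNA hosts (6 also without the 3 libraries with Xist and Ddx3y), where 2.98% of all genes and 4.33% of the well-expressed protein-coding genes were called. It was more negative there for 13, against 3.78% and 4.1%. The 13 included the microRNA hosts Gm3764 and Mir9-3hg (5 microRNA hosts without those 3 libraries or on TPM-scaled values, and 6 with voom), the Hox cluster members Gm15050, Gm11536 and Haglr, and Miat and Peg13. Without those 3 libraries Gm11536 and Haglr missed the threshold (-0.92, adjusted p = 0.0542, and -0.48, adjusted p = 0.0943). The count of 13 was 5 with no filter on low values. It was 6 without Ednrb-/- caudal library 4 and 8 without WT caudal library 1, Ednrb-/- trunk library 1 or 3, or WT trunk library 1, with 19 as its highest when 1 library was left out. For 1 of the 13 the genotype difference was called in opposite directions. Gm8066, antisense within Epo, had 5.82, 5.95, 5.14 and 7.34 FPKM in Ednrb-/- caudal and 10.6, 8.68, 8.00 and 9.24 FPKM in WT caudal libraries, but 8.35, 8.71, 7.33 and 8.84 FPKM in Ednrb-/- trunk libraries and 5.69, 6.14, 6.66 and 6.98 FPKM in WT trunk libraries. The groups were apart both times, with log2 fold changes of -0.56 (SE 0.10, adjusted p = 0.00043) and 0.36 (SE 0.10, adjusted p = 0.016) and a difference of -0.92 (SE 0.14, adjusted p = 0.0032); the trunk call was lost with voom (0.34, adjusted p = 0.0734).

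Taking group means, Ednrb-/- caudal tissue was the lowest of the 4 groups for 49 of the 109 (45%, against 34.8% of all genes tested) and the highest for 37 (33.9%, against 38.4%). Ednrb-/- trunk tissue was the highest for 28 (25.7%, against 15.2%) and the lowest for 6 (5.5%, against 15.6%). WT caudal tissue was the highest for 14 (12.8%, against 15.6%) and the lowest for 23 (21.1%, against 17.2%). WT trunk tissue was the highest for 30 (27.5%, against 30.8%) and the lowest for 31 (28.4%, against 32.4%). These are means of FPKM as deposited, and this tally was not repeated on other scalings.

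Position relative to protein-coding genes was read from the table. Of the 109, 28 started within 1000 bases of a protein-coding gene on the opposite strand. In the caudal genotype comparison 13 of the 28 lncRNAs and 13 of the 28 partners were called. The share called there was 41.6% over all genes tested and 52.6% over well-expressed protein-coding genes. Both genes of a pair were called in 5 pairs, 4 of them in the same direction, and Pearson's r of the 2 log2 fold changes over the 28 pairs was 0.356. In the trunk 7 of the lncRNAs and 12 of the partners were called, both in 4 pairs, 3 in the same direction, with r = 0.401. The shares there were 25.1% and 31.4%. Whether pairs were called together more often than the separate counts give was not tested. The pairs come from the same libraries, so these correlations are descriptions. Beside Gm12688 and Foxd3, the same-direction caudal pairs were Snhg1 with Slc3a2 (0.50 and 0.14 on the log2 scale), C630043F03Rik with Tle1 (-0.25 and -0.38) and D430020J02Rik with Ncapg2 (0.24 and 0.35), and the opposite one was 2610507I01Rik with Mrpl55 (-0.22 and 0.24). The call of 2610507I01Rik was lost without Ednrb-/- caudal library 2, 3 or 4 or WT caudal library 2 or 4 (-0.21 to -0.16, adjusted p = 0.0595 to 0.111). Where a lncRNA overlapped a protein-coding gene on the opposite strand, the pair was counted however the starts lay. Gas5 with Zbtb37 was thus in this set and among the 28, and Hoxb5os was in it with both Hoxb5 and Hoxb6. In the caudal region the lncRNA was called in 16 and the partner in 18 of the 38 pairs tested. Both were called in 7, 4 in the same direction and 3 in opposite ones, and r was -0.072. For the 38 tested pairs related only by the nearest start, r was 0.0726 there. For the 8 overlaps on the same strand, which may share reads, it was 0.716.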

How the data were processed

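RNA was sequenced from the caudal and trunk regions of E11.5 embryos, 4 libraries for each genotype and region. The FPKM values were deposited by the authors. Per the submitters' processing notes they used fastp, HISAT2 2.0.5 and featureCounts 1.5.0-p3 with mouse build mm39; for the annotation release, the strand setting and multi-mapping reads, the sources used here give nothing.

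Values were tested as log2(FPKM + 0.5) with limma 3.58.1 (R 4.3.3), 4 group means over 16 libraries and a trended variance, on the 17205 genes with at least 0.5 FPKM in 4 libraries. Adjusted p-values are Benjamini-Hochberg over all genes tested, called under 0.05, and every adjusted p in the text is from this limma fit or a named alternative to it. Fold changes are on that log2 scale, which understates those of low genes. The steps of the FPKM values gave whole reads within 0.01 for 100% of values. Voom on these reads, an alternative, called 2630 genes higher and 4430 lower in the caudal genotype comparison, against 3732 and 3432. Other alternatives were pseudocounts of 0.1 and 1, no filter or one of 1 FPKM, scaling to TPM, by quantiles or by median ratios, array weights, fits of only the groups compared, a replicate block, a term for Ddx3y at or above 5 FPKM, and leaving out libraries. Tables and plots were made with Python 3.11.15, pandas 2.3.3 and matplotlib 3.10.9. The fit was also run on simulated data, with the same dispersion for every gene and far fewer changed genes than were called here. That run therefore does not measure the error of the fit on these data. Within a group, counts of the libraries varied beyond sampling noise (chi-square per degree of freedom 5.80 to 17.8). Deviations of same-numbered libraries correlated at -0.0836 to 0.109, so the numbers were not taken to pair them.

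The lncRNAs and lists were chosen with earlier results of these data known. Named were lncRNAs with the highest levels, the largest called differences or the smallest interaction p, those in lists of known role, and their neighbours. 5430416N02Rik and the neighbour pairs counted as called together were named after their values were seen. Hosts were defined by annotated small RNAs inside the lncRNA on its strand. RefSeq sequences are on GRCm38.p6, and coordinates of the table are on mm39.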

Additional observations from a re-analysis of the deposited data

Results flagged for a closer look

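The genotype difference (Ednrb-/- minus WT, log2 scale) was set apart between the regions by the interaction term of the limma fit for 12 of the 42 lncRNAs named by the rule. Among snoRNA hosts the caudal minus trunk difference was 0.345 for Gas5 (adjusted p = 0.023), 0.692 for Snhg8 (0.0043), 0.528 for Zfas1 (0.0072), 0.419 for Snhg12 (0.018) and 1.1 for Rab26os (0.011). It was negative for the miR-9 hosts Mir9-3hg, at -1.36 (adjusted p = 0.024), and Gm3764, at -1.93 (0.0079). The values of Gas5, Mir9-3hg, Miat, Haglr and Peg13 missed the threshold when certain single libraries were left out, with adjusted p up to 0.0515, 0.0562, 0.0552, 0.0697 and 0.0892. Miat had -0.723 (adjusted p = 0.024), Peg13 -0.462 (0.045), Haglr -0.524 (0.034), 5430431A17Rik -0.985 (0.0078) and Gm8066 -0.917 (0.0032). Peg13 also missed it with the Ddx3y term (adjusted p = 0.0555). Outside those 42, the snoRNA host 2410006H16Rik had 0.40 (adjusted p = 0.0089), and Gm15050 and Gm11536 had -0.68 (0.018) and -0.89 (0.024).

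Single libraries stood far from the other 3 of their group in 12 of 168 groups examined, where chance gives about 1 in 20. Among hosts in Ednrb-/- tissue, Rab26os reached 10.74 FPKM in caudal library 3 (next 8.683) and only 5.524 FPKM in trunk library 1 (next 7.137). Snhg5 had 17.98 FPKM in Ednrb-/- trunk library 1 (next 19.97), Snhg18 5.984 FPKM in Ednrb-/- trunk library 2, the highest there (next 5.729), and Gm53 4.221 FPKM in Ednrb-/- trunk library 3 (next 5.679). In WT trunk tissue, Mir100hg had 17.91 FPKM in library 4 (next 19.17), Epb41l4aos 5.401 FPKM in library 2 (next 6.933), Gm28901 3.952 FPKM in library 1 (next 5.379), and Snhg6 6.197 FPKM in library 1, the highest there (next 5.15). In WT caudal tissue, Mir17hg had 13.43 FPKM in library 4 (next 16.59), Dnm3os 3.53 FPKM in library 3 (next 5.071) and 5430431A17Rik 3.608 FPKM in library 1 (next 5.074).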

How the results depend on the processing

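Of 177 called differences of single lncRNAs, 53 lost the call under at least 1 alternative and 0 turned direction. With a change of at least 2-fold also required, fewer lncRNAs were called by construction: 2 higher and 7 lower between genotypes in the caudal region, 3 and 2 in the trunk, 11 and 1 between regions in Ednrb-/-, 3 and 2 in WT, and 1 and 2 for the interaction. With no filter, 37417 genes were tested and the interaction was negative for 5; the cause was not tested. Leaving out 1 library at a time gave caudal counts of 22 to 29 higher and 22 to 27 lower, trunk counts of 19 to 25 and 9 to 12, region counts of 24 to 32 and 14 to 20 in Ednrb-/-, and 7 to 14 and 9 to 12 in WT. For the interaction they were 5 to 7 positive and 6 to 19 negative. With the replicate block the counts were 29 and 26 caudally, 24 and 10 in the trunk, 29 and 21 between regions in Ednrb-/-, 14 and 11 in WT, and 7 and 16 for the interaction; the library numbers share no stated source, and no count moved by over 1.5 times. With TPM scaling the median of all genes in the caudal comparison was -0.08.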
